A study of Homo sapiens with 4 samples.

Results

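BCL2 family genes set whether a cell releases cytochrome c from its mitochondria and dies. The 10 genes described here were chosen by symbol, from 58736 features listed in each table, as effectors (BAX, BAK1), anti-apoptotic members (BCL2, BCL2L1, MCL1) and BH3-only members (BMF, BBC3, PMAIP1, BCL2L11, HRK). All 10 were found by their Ensembl identifiers, and all 10 were among the 16362 genes at or above 1 FPKM in at least 2 libraries. FPKM here means reads scaled to exon length and to a library size implied by the deposited values. Their RNA was measured in 4 RNA sequencing libraries of HEK293A cells, an established line of human embryonic kidney cells. The negative control group (libraries numbered 1 and 3) and the NT1_hp2 group (libraries numbered 2 and 3) both received 1 µg of a plasmid encoding FEN1, a flap-cutting nuclease, and 500 pmol of DNA probes 48 h later, with RNA prepared after 72 h. NT1_hp2 names the probe of the second group. No label names its target or the probe of the control. The labels do not state whether the libraries of a group stem from different cultures, so a p-value here reflects library-to-library spread that could be purely technical.

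As background, BAX and BAK1 form pores in the outer mitochondrial membrane, and BCL2, BCL-XL (the main product of BCL2L1) and MCL1 hold them in check. BH3-only proteins are stress sensors that occupy the groove of the survival proteins, and some also activate BAX and BAK1 directly. NOXA, the product of PMAIP1, binds mainly MCL1, whereas BIM (BCL2L11) and PUMA (BBC3) bind all the main survival proteins. Cells of the HEK293 lineage carry adenoviral early genes whose products include a BCL2 homologue.

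What the members share in sequence is the BH3 motif, by which they bind each other. It was searched in the coding sequence of each gene's principal transcript (GENCODE 29) as leucine, any 3 residues, glycine or alanine, then aspartate, an acidic, basic, glutamine or glycine position and a hydrophobic one, which makes 8 codons. Each of the 10 members held it exactly 1 time, and 452 of 19590 protein-coding genes searched held it (2.31%). The residues allowed after the aspartate are those that occur in the members, so a match in every member was fixed by the pattern. The 9 codons that start at the leucine are shown 5′ to 3′ because they carry the feature that defines the family, with the codons of the leucine, the glycine or alanine and the aspartate in capitals. BBC3 and BMF have an alanine codon where the other 8 have glycine.
BAX: CTCaagcgcatcGGGGACgaactggac
BAK1: CTCgccatcatcGGGGACgacatcaac
MCL1: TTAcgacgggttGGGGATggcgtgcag
BCL2L1: CTGagggaggcaGGCGACgagtttgaa
BCL2: CTCcgccaggccGGCGACgacttctcc
PMAIP1: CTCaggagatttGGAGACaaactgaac
BBC3: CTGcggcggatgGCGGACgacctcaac
BMF: CTTcagtgcattGCAGACcagttccac
BCL2L11: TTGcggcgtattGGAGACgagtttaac
HRK: CTCaaggcgctaGGCGACgagctgcac

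The deposited values corresponded to 12506203 to 14908687 reads per library, and 3 reads of a 1 kilobase gene amounted to 0.208 to 0.239 FPKM, a floor that covers counting error only. The library size implied by the values was 0.966 and 1.005 times the recovered reads in control libraries 1 and 3. It was 1.035 and 1.044 times in NT1_hp2 libraries 2 and 3, so this factor differed between the groups. The share of mitochondrial reads was 5.92% to 6.06% for the control libraries and 4.29% to 4.33% for NT1_hp2. Of 8 markers for the labelled cell type, KRT8 and KRT18, keratins of simple epithelia, were at 54.4 to 112 FPKM. The epithelial cadherin gene CDH1 (1 to 12 reads) and EPCAM (8 to 16 reads) were close to absent. The 8 summed to 283 and 309 FPKM in the negative control and to 263 and 267 in NT1_hp2. Of 12 markers of other cell types PTPRC, CD3E and HBB were at 0 in all 4 libraries, and the 12 summed to 14.6 and 15.2 FPKM in the negative control and to 12.4 and 13.2 in NT1_hp2. The part of these shifts in the results was not tested.

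As deposited, RNA levels of both effectors, of BCL2L1 and of the BH3-only gene BMF were lower in NT1_hp2 than in the negative control. BAX was at 0.569, BAK1 at 0.652, BCL2L1 at 0.569 and BMF at 0.587 of their control means. No member rose past the threshold as deposited, although PMAIP1 (1.30-fold) and HRK (1.40-fold) had higher values in both NT1_hp2 libraries than in either control library. MCL1, BCL2L11 and BCL2 had overlapping groups. With limma-trend on log2(FPKM + 1) and Benjamini-Hochberg adjustment over all tested genes, 4 of 10 members passed as lower and 0 as higher, where 8.92% of all tested genes were lower and 5.00% higher. At an unadjusted p under 0.05, 5 members were lower and 2 higher, against 21.2% and 15.9% of all tested genes. With library totals as the scale, limma-trend passed 4 as lower and 2 as higher, PMAIP1 and HRK (adjusted p = 0.0278 and 0.0439). In that fit 1327 of 16362 genes were lower and 1531 higher. With limma-voom, a model of the reads recovered from the FPKM values, 5 passed as lower and 2 as higher, against 19.9% and 14.4% of all genes. In the deposited values the median log2 difference was −0.23 over the 10 members and −0.0075 over all tested genes. That median is the midpoint between BBC3 and MCL1, and it was −0.075 after a correction for transcript length and GC content. After that correction BMF alone of the members passed as lower in limma-trend, where 0.911% of all genes did, and BAX, BCL2L1 and BAK1 did not. In bulk RNA, fewer cells that express a gene and less RNA of it per cell cannot be told apart.

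**Figure D1:**
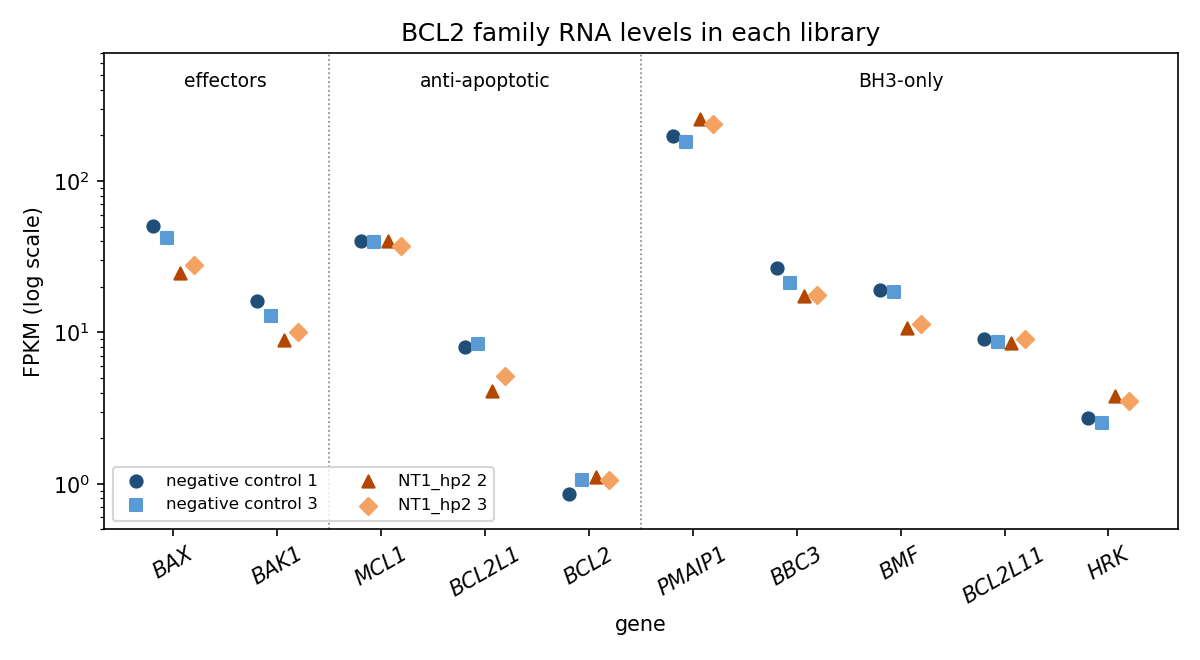
RNA level of each BCL2 family gene in FPKM (log axis), 1 point per library, blue for the 2 negative control and orange for the 2 NT1_hp2 libraries. PMAIP1 lies above all other members in every library, BAX lies above MCL1 in the control libraries and below it in the NT1_hp2 libraries, and BCL2 lies near 1 FPKM.

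The effectors had lower levels in both NT1_hp2 libraries. BAX (ENSG00000087088, chromosome 19, 48954815 to 48961798, GRCh38), whose product forms the pore after moving from the cytosol, was measured at 50.6 and 41.8 FPKM in negative control libraries 1 and 3 and at 24.6 and 28.04 FPKM in NT1_hp2 libraries 2 and 3. Control library 1 was the highest, and the groups did not overlap. The log2 difference was −0.79 (SE 0.12, limma-trend adjusted p = 0.0340), over 899 to 1886 reads per library. BAK1 (chromosome 6, 33572547 to 33580293), the effector that resides in the outer membrane, was at 16.2 and 12.9 FPKM in the control and at 8.93 and 10.1 in NT1_hp2. Its groups did not overlap, but the gap between them (10.1 to 12.9 FPKM) was smaller than the distance between the control libraries. The log2 difference was −0.56 (SE 0.12, limma-trend adjusted p = 0.0490), close to the threshold, and BAK1 did not pass without robust shrinkage of the variances (adjusted p = 0.0554). BAK1 has 2 annotated pseudogenes with 0 to 23 reads each, and how reads were divided among such copies is not given.

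Of the 3 survival genes, BCL2L1 passed the test. BCL2L1 (ENSG00000171552, chromosome 20, 31664452 to 31723989) was at 7.96 and 8.33 FPKM in the control and at 4.10 and 5.16 FPKM in NT1_hp2, over 192 to 380 reads. Both control libraries lay above both NT1_hp2 libraries, and the distance between groups exceeded the distance within either. The log2 difference was −0.71 (SE 0.11, limma-trend adjusted p = 0.0353). Of its exon bases 43.0% are shared with ABALON, an antisense RNA gene with 10 to 19 reads per library. Libraries from this kit carry no strand information, and reads of ABALON and BCL2L1 cannot be told apart there.

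MCL1 (chromosome 1, 150574551 to 150579738), a short-lived survival protein and the main partner of NOXA, was at 40.1 and 39.3 FPKM in the control and at 40.0 and 37.0 in NT1_hp2. The groups overlapped and the log2 difference was −0.045 (SE 0.070, limma-trend adjusted p = 0.681). BCL2 (chromosome 18, 63123346 to 63320128), the founding member, was at 0.862 and 1.06 FPKM in the control and at 1.11 and 1.05 in NT1_hp2. That is 146 to 185 reads per library, and control library 1 was the lowest. The groups overlapped, and the log2 difference was 0.088 (SE 0.20, limma-trend adjusted p = 0.786).

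The BH3-only genes went both ways. BMF (ENSG00000104081, chromosome 15, 40087890 to 40108892), whose product is tethered to the cytoskeleton through a dynein light chain, was at 19.2 and 18.5 FPKM in the control and at 10.7 and 11.4 in NT1_hp2. Libraries of a group lay within 1 FPKM of each other, and the groups were far apart. The log2 difference was −0.72 (SE 0.067, limma-trend adjusted p = 0.0340), with the smallest unadjusted p of the 10 (0.000130). BMF-AS1, an antisense gene that shares 8.46% of its exon bases, was at 0 reads in every library.

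BBC3 (chromosome 19, 47220822 to 47232766), which encodes PUMA, a protein that binds all the main survival proteins, was at 26.6 and 21.2 FPKM in the control and at 17.4 and 17.7 in NT1_hp2. The groups did not overlap, with control library 1 well above the rest. The log2 difference of −0.42 (SE 0.12) did not pass in limma-trend (adjusted p = 0.0702), and it passed in limma-voom (adjusted p = 0.000240). BCL2L11 (chromosome 2, 111119378 to 111168447), which encodes BIM, was at 8.99 and 8.69 FPKM in the control and at 8.44 and 9.11 in NT1_hp2. Its groups overlapped, and the log2 difference was −0.010 (SE 0.072, limma-trend adjusted p = 0.935). The non-coding gene MIR4435-2HG, on the other strand, shares 10.9% of the BCL2L11 exon bases and had 193 to 230 reads.

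PMAIP1 (ENSG00000141682, chromosome 18, 59899948 to 59904306) was by far the most abundant member, at rank 106 of 16362 tested genes by mean FPKM. It was at 199 and 181 FPKM in the control and at 257 and 237 in NT1_hp2, over 5085 to 8120 reads. Both NT1_hp2 libraries lay above both control libraries. The log2 difference was 0.38 (SE 0.091, limma-trend adjusted p = 0.0561), which did not pass. PMAIP1 passed with limma-voom (adjusted p = 5.6e-05) and with median-of-ratios, upper-quartile and library-total scaling (adjusted p = 0.0370, 0.0269 and 0.0278). HRK (chromosome 12, 116856144 to 116881441), best known from neurons deprived of growth factor, was at 2.74 and 2.52 FPKM in the control and at 3.82 and 3.52 in NT1_hp2, over 217 to 370 reads. Its groups did not overlap. The log2 difference was 0.36 (SE 0.096, limma-trend adjusted p = 0.0646), and HRK passed with limma-voom (adjusted p = 0.00387). In limma-trend HRK passed with upper-quartile and library-total scaling (adjusted p = 0.0452 and 0.0439), but not with median-of-ratios scaling (0.0548). It also passed limma-trend with at least 1 FPKM in all 4 libraries (adjusted p = 0.0437) and among protein-coding genes only (0.0115).

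Both groups of a gene were apart in 5 members with lower and 2 with higher NT1_hp2 values, against 34.8% and 32.0% of all tested genes. Separation of 2 libraries from 2 others was therefore common, and the members' counts are to be read against it.

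**Figure D2:**
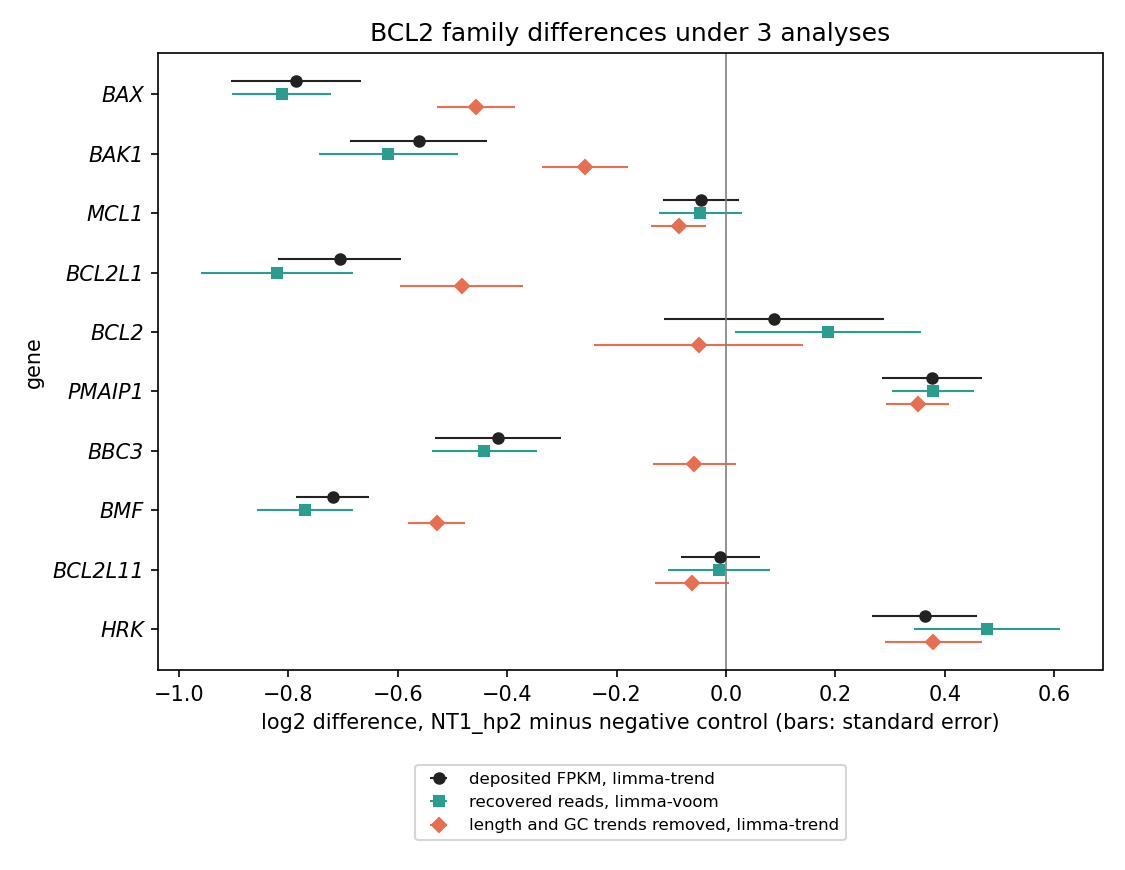
Log2 difference of each member, NT1_hp2 minus negative control, with its standard error, from deposited FPKM (black), recovered reads (green) and FPKM corrected for transcript length and GC (orange). PMAIP1 and HRK stay on the right in all 3 analyses, BMF, BAX, BCL2L1 and BAK1 stay on the left but move toward 0 in the third, and BBC3 moves from −0.42 to −0.058.

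Transcript GC content moved with the differences across all genes. The tested genes were split by GC into 4 bins of equal size. The median log2 difference was 0.20 in the bin with the least GC, followed by 0.078 and −0.075, and it was −0.28 in the bin with the most GC (above 56.3%). The 4 members that fell had GC contents of 56.2% to 60.4%, and BBC3 had 64.5%. MCL1, BCL2, BCL2L11 and PMAIP1 had 43.6% to 46.8%, and HRK had 50.2%. After smooth trends with exon length and GC content were removed from each library, BMF remained past the threshold (log2 difference −0.53, SE 0.051, limma-trend adjusted p = 0.0388), in a fit that called 0.911% of genes lower and 0.685% higher. BAX was at −0.46 (adjusted p = 0.0565), BCL2L1 at −0.48 (0.0869) and BAK1 at −0.26 (0.132), none of which passed. BBC3 was at −0.058 (adjusted p = 0.672). PMAIP1 was at 0.35 (adjusted p = 0.0580) and HRK at 0.38 (0.0864). No member passed as higher in that fit, where 2 were higher and 4 lower at an unadjusted p under 0.05, against 12.3% and 14.8% of all genes.

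**Figure D3:**
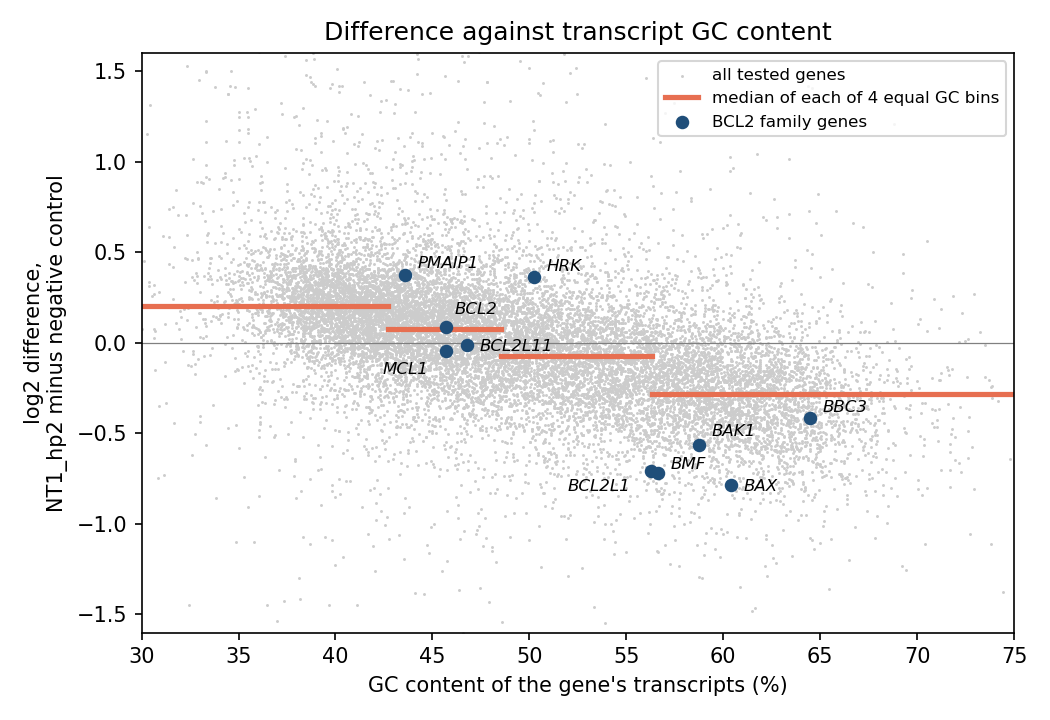
Log2 difference (NT1_hp2 minus negative control) against the GC content of a gene's transcripts, with all tested genes in grey, the median of each of 4 equal GC bins as an orange line and the BCL2 family genes in blue; 133 genes lie beyond the axes. BAX, BMF, BAK1 and BBC3 lie below the −0.28 median of the bin with the most GC, and BCL2L1 lies at its edge, at 56.2%.

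With 1 of the 4 libraries left out, the lone library of its group is assumed to vary like the other group, whose 2 libraries alone give the spread. In those fits no member passed limma-trend, and at most 1 of all tested genes did, so the values below are given for their size only. BAX was at −0.65 without control library 1, −0.92 without control library 3, −0.70 without NT1_hp2 library 2 and −0.88 without NT1_hp2 library 3. In the same order BAK1 was at −0.41, −0.71, −0.48 and −0.64, BCL2L1 at −0.73, −0.68, −0.57 and −0.84, and BMF at −0.70, −0.74, −0.68 and −0.76. The direction of these 4 genes was the same in each of those fits, and BMF varied least.

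Ratios between members within a library do not depend on how libraries are scaled to each other. Of 6 members set against MCL1, 3 had lower and 2 higher ratios without overlap of the groups, where 29.5% and 35.1% of all tested genes did so against MCL1. In all, 12 ratios of named pairs were computed, not every pair, and BMF, BBC3 and HRK were not set against MCL1. With 2 libraries against 2, an exact two-sided permutation p cannot fall below 0.333. BAX had 1.26 and 1.06 times the level of MCL1 in control libraries 1 and 3 and 0.615 and 0.759 times in NT1_hp2 libraries 2 and 3. Whether such a ratio lies above or below 1 depends on the exon lengths used (2587 bases for BAX, 4371 for MCL1). In control library 3 the 95% counting intervals of the 2 genes overlapped (39.6 to 44.1 FPKM for BAX, 37.7 to 41.0 for MCL1). BAX minus MCL1, a difference between their log2 differences, was −0.74 as deposited, and −0.37 after the length and GC correction. The PMAIP1 level was 4.97 and 4.61 times that of MCL1 in the control and 6.43 and 6.42 times in NT1_hp2. BCL2L1 stood at 0.199 and 0.212 of MCL1 in the control and at 0.103 and 0.140 in NT1_hp2. The level of BMF was 2.13 times that of BCL2L11 in both control libraries and 1.27 and 1.25 times in NT1_hp2. In contrast, BAX over BCL2L1 was 6.36 and 5.02 in the control and 6.00 and 5.43 in NT1_hp2, with overlapping groups. HRK over BCL2L1, which sets a member with higher values over a member with lower values, went from 0.344 and 0.302 to 0.932 and 0.681. Its difference of log2 differences was 1.07 as deposited and 0.86 after the correction, and that of BMF over BCL2L11 was −0.71 and −0.47.

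In the control the members ranked by mean FPKM as PMAIP1, BAX, MCL1, BBC3, BMF, BAK1, BCL2L11, BCL2L1, HRK and BCL2, and no neighbours in that order overlapped between libraries. Ranks and shares across genes depend on the exon lengths used, from 2212 bases for BAK1 to 11765 for BCL2, so close neighbours are not securely ordered. In NT1_hp2 MCL1 stood above BAX, and BAK1 and BCL2L11 overlapped. All members together summed to 373 and 335 FPKM in the control and to 376 and 360 in NT1_hp2, with overlapping groups. PMAIP1 made up 53.5% and 54.0% of that sum in the control and 68.4% and 65.9% in NT1_hp2. The effectors made up 17.9% and 16.3% in the control and 8.91% and 10.6% in NT1_hp2, and the survival genes 13.1% and 14.5% against 12.01% and 11.98%. The 4 BH3-only genes other than PMAIP1 summed to 57.5 and 50.95 FPKM in the control and to 40.4 and 41.7 FPKM in NT1_hp2.

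**Figure D4:**
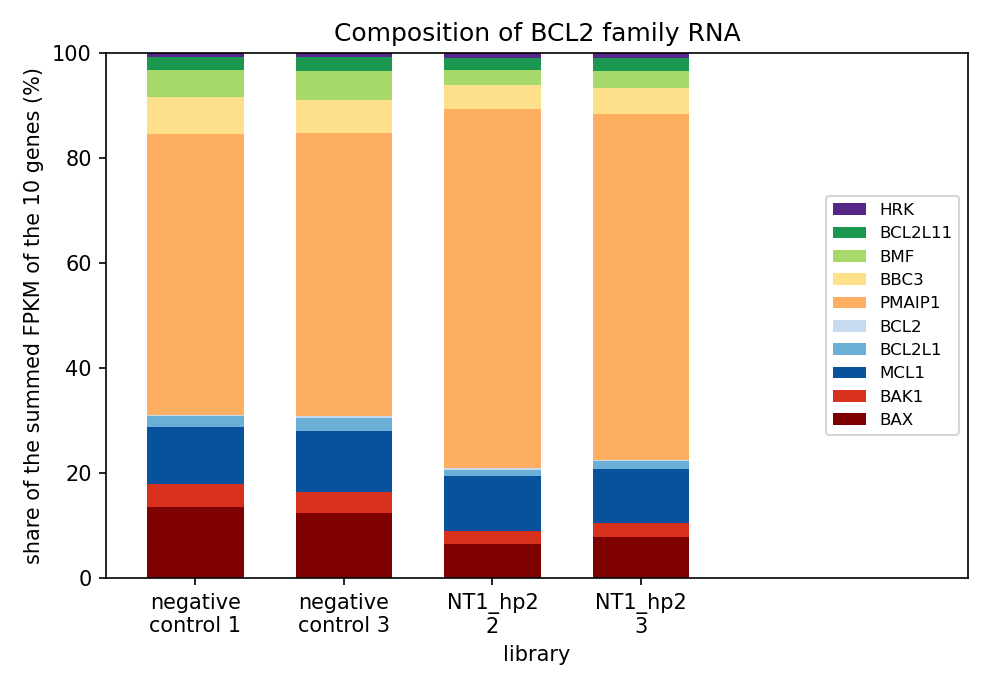
Share of each gene in the summed FPKM of the 10 BCL2 family genes, 1 stacked bar per library. The PMAIP1 segment grows from 53.5% and 54.0% in the control libraries to 68.4% and 65.9% in the NT1_hp2 libraries, and the red effector segments shrink.

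Promoter windows of 250 bases before the start site were taken from RefSeq (GRCh38.p14), where 9 of the 10 members matched with 11 windows. These start sites differ from the ends of the gene spans given above. The windows of BCL2 and BCL2L11, and a window each of BCL2L1 and BMF, lie inside those spans. PMAIP1, HRK and BMF are shown, the 2 members with higher values and the member with the smallest p among those that fell, because they were set against elements of stress-responsive factors. The letters TGACG (the half-site bound by ATF and CREB factors, either strand) were found in 6 of the 11 windows, in BAX, BCL2, BCL2L1, BMF, PMAIP1 and HRK, against 21.2% of all 35116 windows. The letters TGATGNAA (an element of C/EBP-ATF dimers, either strand, no overlap with the first) were found in 1 of the 11, that of HRK, against 3.14% of all windows. The AP-1 element TGANTCA was in 1 of the 11 windows (6.57% of all) and the GC box GGGCGG in 6 (42.6% of all), either strand. The half-site occurred in members with higher, lower and overlapping values. Of the 2 BMF windows the window with the half-site is shown, and the other, at chr15:40106967-40107216, held none of these motifs. The windows below lie at chr18:59899746-59899995 on the plus strand, chr12:116881442-116881691 on the minus strand and chr15:40108880-40109129 on the minus strand, with the first 2 motifs in capitals.
PMAIP1: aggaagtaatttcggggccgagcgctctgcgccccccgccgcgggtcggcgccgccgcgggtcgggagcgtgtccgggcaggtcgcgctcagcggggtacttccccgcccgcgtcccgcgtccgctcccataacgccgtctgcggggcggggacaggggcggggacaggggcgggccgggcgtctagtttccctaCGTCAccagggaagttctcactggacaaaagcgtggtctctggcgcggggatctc
HRK: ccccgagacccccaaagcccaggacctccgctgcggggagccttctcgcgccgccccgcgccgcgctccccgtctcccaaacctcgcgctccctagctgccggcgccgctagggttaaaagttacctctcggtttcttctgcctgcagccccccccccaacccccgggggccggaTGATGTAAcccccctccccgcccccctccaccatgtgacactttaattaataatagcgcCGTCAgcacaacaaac
BMF: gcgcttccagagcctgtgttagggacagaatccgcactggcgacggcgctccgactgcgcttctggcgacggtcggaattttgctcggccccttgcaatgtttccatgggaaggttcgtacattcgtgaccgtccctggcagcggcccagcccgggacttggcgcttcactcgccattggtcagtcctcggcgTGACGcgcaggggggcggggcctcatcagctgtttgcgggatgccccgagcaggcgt

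Other genes of the pathway were taken from 6 further lists of 84 genes, of which 76 rows were tested (DIABLO has 2 identifiers, both below the filter). In limma-trend 9 of the 76 rose and 15 fell, where 5.00% of all tested genes were higher and 8.92% lower, shares that the count of each list below is also to be read against. After the length and GC correction 7 passed as higher and 1 as lower, where 0.685% and 0.911% of all genes did. The 5 genes that passed in both fits were ATF3, DDIT3, TRIB3, GDF15 and BCL2L12. JUN, E2F1 and SESN2, chosen after their values were seen, passed as higher in the corrected fit alone. Among 13 other BCL2 family genes 8 were tested, with 1 higher, 2 lower and a median log2 difference of −0.15. BAD, a BH3-only gene controlled by phosphorylation, fell from 23.7 and 17.3 to 8.91 and 11.6 FPKM (log2 difference −0.93, SE 0.19, limma-trend adjusted p = 0.0464). BCL2L12 fell from 21.4 and 19.8 to 12.05 and 11.8 FPKM and was still past the threshold after the length and GC correction (adjusted p = 0.0450). BNIP3L, a mitophagy receptor, rose from 48.6 and 47.2 to 70.6 and 60.0 FPKM. BID, which links death receptors to mitochondria, was at 4.35 ± 0.513 and 4.16 ± 0.0155 FPKM (SD, n = 2) with overlapping groups, and BCL2L2, a survival gene, had a log2 difference of −0.25 that did not pass. BOK, an effector relative, had 2 to 7 reads per library and was not tested.

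Downstream of the mitochondria 1 of 17 tested genes of the apoptosome and caspase list rose and 3 fell, with a median of 0.016. After the length and GC correction 0 passed in either direction. In that fit 2 were lower and 0 higher at an unadjusted p under 0.05, against 14.8% and 12.3% of all genes. XIAP, an inhibitor of caspases, rose from 8.47 and 8.70 to 11.4 and 10.6 FPKM. ENDOG, a mitochondrial nuclease, fell from 9.19 and 8.42 to 6.10 and 6.19 FPKM, AIFM1 fell by 0.44 on the log2 scale and CASP6 by 0.42. The correction took ENDOG from −0.46 to −0.085 and XIAP from 0.33 to 0.10, and left AIFM1 at −0.39 and CASP6 at −0.41. The apoptosome gene APAF1 (log2 difference 0.033) and the initiator CASP9 (0.034) did not pass. Of 10 death receptor and adaptor genes 0 passed in limma-trend. At an unadjusted p under 0.05 in limma-trend 1 was higher and 3 were lower, against 15.9% and 21.2% of all tested genes. Limma-voom called 1 higher and 4 lower, against 14.4% and 19.9% of all genes. The death receptor gene TNFRSF10B was at 39.3 ± 1.47 FPKM in the control and 45.4 ± 0.314 in NT1_hp2 (SD, n = 2) without passing, and the decoy CFLAR was at 0.012 on the log2 scale.

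Among 14 genes for partners of the family at the outer membrane and for turnover of its proteins, 2 rose and 4 fell. The median of the 14 was −0.033, and 0 passed after the length and GC correction. In that corrected fit 2 were higher and 4 lower at an unadjusted p under 0.05, against 12.3% and 14.8% of all genes. The dynein light chain genes DYNLL1 and DYNLL2, which encode the anchors of BIM and BMF, both fell, from 32.9 and 26.9 to 19.9 and 19.3 FPKM and from 18.9 and 17.9 to 13.7 and 14.5 FPKM. MARCHF5, a mitochondrial ubiquitin ligase, rose by a log2 difference of 0.45 and SH3GLB1, a BAX-binding protein gene, by 0.39, while BCAP31 fell by 0.50 and BAG6 by 0.29 on the log2 scale. After the correction BAG6 was at −0.043, SH3GLB1 at 0.19, MARCHF5 at 0.28, BCAP31 at −0.29, DYNLL1 at −0.42 and DYNLL2 at −0.40. VDAC2, the membrane channel that binds BAK1, and HUWE1, a ubiquitin ligase for MCL1, had log2 differences of 0.13 and 0.052 and did not pass.

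Of 13 tested genes for factors that act on BH3-only genes, 4 rose and 1 fell, with a median of 0.22, and 5 passed as higher and 0 as lower after the length and GC correction. ATF3, DDIT3 and the pseudokinase gene TRIB3 rose by log2 differences of 1.38, 1.18 and 1.04, FOXO1 rose by 0.34, and TP73 fell by 0.38. After the correction TP73 was at −0.10, while ATF3, DDIT3 and TRIB3 were at 1.44, 1.25 and 1.37. FOXO3 (0.22) and ATF4 (−0.23) did not pass. Among 14 tested genes of arrest and repair that DNA damage induces, 1 rose and 5 fell, with a median of −0.027. CDKN1A, the cell cycle inhibitor, fell from 175 and 147 to 114 and 116 FPKM. PHLDA3, FDXR, BTG2 and XPC fell by 0.79, 0.58, 0.48 and 0.38 on the log2 scale, MDM2 was at 0.049 without passing, and GDF15, which is also a stress-response gene, rose by 0.65. After the length and GC correction 0 of the 14 passed as lower and 2 as higher (GDF15 and SESN2). In that fit 6 were lower and 4 higher at an unadjusted p under 0.05, against 14.8% and 12.3% of all genes. FDXR was then at −0.24, PHLDA3 at −0.46 and CDKN1A at −0.19.

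**Figure D5:**
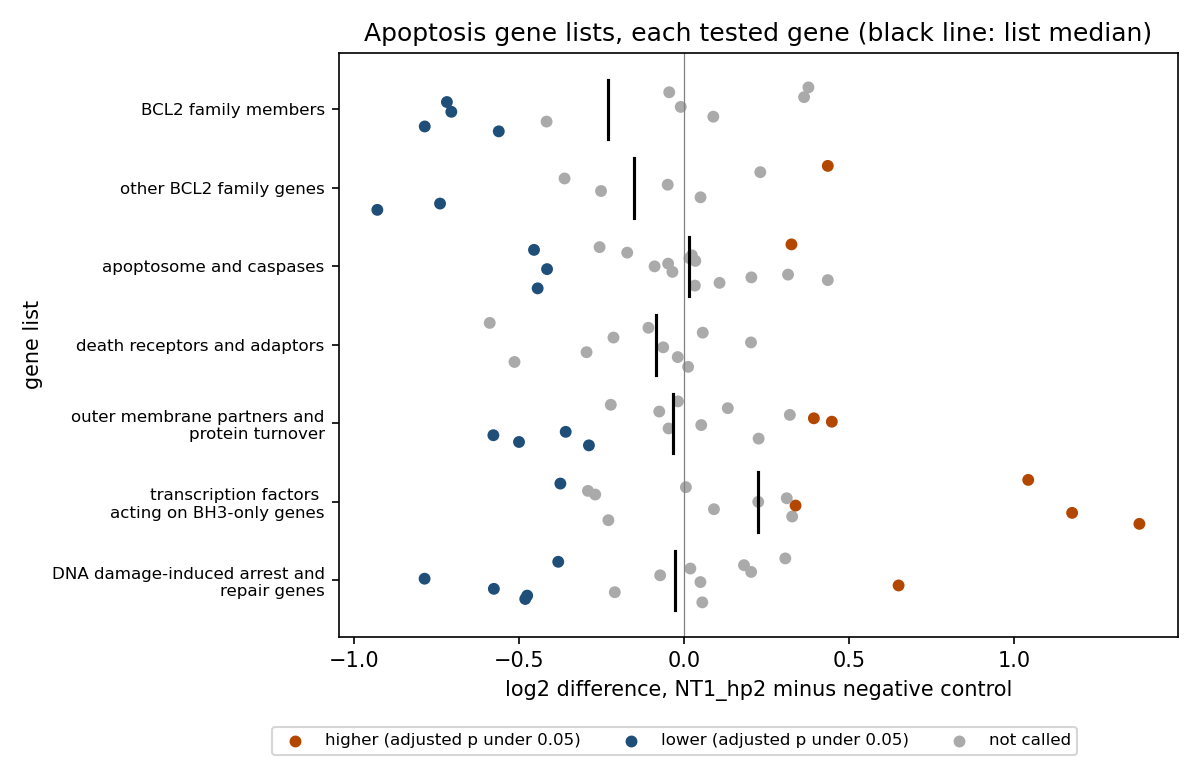
Log2 difference (NT1_hp2 minus negative control) of each tested gene in the 7 lists, 1 point per gene, orange for genes that passed as higher, blue for those that passed as lower and grey for the rest, with the list median as a black line. The BCL2 family members have the lowest median of the 7 lists in these uncorrected values (−0.23), whereas after the length and GC correction theirs is −0.075 and that of the DNA damage list −0.11. The factors acting on BH3-only genes have 3 points above 1.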

How the data were processed

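RNA sequencing libraries of HEK293A cells were compared as 2 negative control against 2 NT1_hp2 libraries, grouped by their titles. Wells were seeded with 300000 cells, and 1 µg of RNA went into an unstranded NEBNext Ultra kit, per the labels' protocols. The authors deposited 1 table per library whose values were taken as FPKM, a unit inferred from the values. The submitters' processing notes name GRCh38.p12. No aligner, counter or normalization method is named there (not given in the sources used here). Of 58736 rows, 58735 matched GENCODE 29. FPKM times exon length fell on whole multiples of 1 step per library for 100% of values above 0 (tolerance 0.01), from which read numbers were recovered. No 2 files were identical, and the chi-square per degree of freedom was 5.68 and 2.69 within groups and 13.2 to 28.2 between them, and each library was counted as 1 replicate.

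Genes that reached 1 FPKM in at least 2 libraries were compared as log2(FPKM + 1), which understates changes of low genes, with limma 3.58.1 (trend, robust) in R 4.3.3, called at a Benjamini-Hochberg adjusted p under 0.05. Length and GC trends were removed with mgcv 1.9.3. The fit was tested on simulated data. Members and lists were chosen with earlier results of these data known. The text names all 10 members, and from each other list the genes that passed (up to 6) and others chosen by name; some list genes are not reported here. Alternatives were the pseudocount, filters, scalings, limma-voom, no robust shrinkage, protein-coding genes only, length and GC correction, and omission of each library.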

Additional observations from a re-analysis of the deposited data

How the results depend on the processing

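Over all tested genes, 818 were higher and 1460 lower. These counts were 0 and 0 without the filter (limma-trend, 6778 genes at an unadjusted p under 0.05), 1374 and 2273 with at least 1 FPKM in all 4 libraries, 2361 and 3256 with limma-voom, 1778 and 2938 among protein-coding genes, and 112 and 149 after the length and GC correction. The count of higher genes was 1484 with upper-quartile factors and 1531 with library totals, and the share of higher calls was 35.9% as deposited, 50.96% with upper-quartile factors and 53.6% with library totals. Omission of 1 library, which leaves 1 against 2 and the spread of 1 group, gave 0 higher and 0 to 1 lower (limma-trend, 3315 to 5836 at an unadjusted p under 0.05).

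Of the members, 0 were higher and 4 lower. There were 2 higher with at least 1 FPKM in all 4 libraries, upper-quartile factors, library totals, limma-voom or protein-coding genes only, and 1 with median-of-ratios factors. There were 0 lower without the filter (5 at an unadjusted p under 0.05), 1 after the length and GC correction, and 0 to 0 when 1 library was omitted (4 to 5 at an unadjusted p under 0.05). BAX, BAK1, BCL2L1, BMF, BBC3, PMAIP1 and HRK kept their direction in all 14 alternatives. BCL2, MCL1 and BCL2L11 changed sign near 0. With 1 library omitted MCL1 ranged from −0.10 to 0.0099 and BCL2L11 from −0.059 to 0.039. BCL2 was at −0.050 after the length and GC correction. MCL1 was at 0.024 with upper-quartile factors, 0.030 with library totals and 0.0099 without NT1_hp2 library 3. BCL2L11 was at 0.0099 with median-of-ratios factors, 0.054 with upper-quartile factors, 0.059 with library totals, 0.012 without control library 1 and 0.039 without NT1_hp2 library 2. Beyond fewer or more genes tested and fewer samples, the cause was not tested. No paired analysis was possible because the groups share fewer than 2 replicate numbers. Depth was lowest for BCL2 among the members, with 146 to 185 reads per library.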
